A study of Mus musculus with 4 samples.

Results

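The cells described are vascular smooth muscle nuclei of the mouse brain, chosen by their own counts: at least 4 unique molecular identifiers (UMIs, counts of single captured transcripts) summed over 5 contractile genes, Acta2, Myh11, Tagln, Lmod1 and Cnn1. A nucleus was left out if it held more than 2 UMIs summed over the endothelial genes Flt1, Cldn5, Adgrl4 and Mecom, or more than 1 of the pericyte gene Atp13a5. It was also left out with more than 1 UMI over the neuronal genes Rbfox3, Slc17a7, Slc17a6, Gad1 and Gad2, or over Mog, Aqp4 and Csf1r, which mark oligodendrocytes, astrocytes and microglia. The rule found 55 of 78728 nuclei, a share of 0.0699%. Because the rule read measured counts, levels of those genes are a description, and no contrast of these nuclei with the rest was tested.

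The series is single-nucleus RNA-seq (snRNA-seq) of tissue labelled cortex or striatum from male C57BL/6J mice. Adeno-associated virus of serotype 9 was injected into the cisterna magna (ICM), the fluid space under the cerebellum, at 4 weeks of age, and brains were taken at 8 weeks. AAV-VEGF-C carried vascular endothelial growth factor C, and AAV-CTRL carried a soluble piece of VEGFR3 that does not bind VEGF-C, so the control mice also received a virus and a secreted protein. Each AAV group was a pool of 5 mice and each of the 4 groups was 1 library, so that cortex and striatum of an AAV group came from the same pool and no value has a replicate check.

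Vascular smooth muscle cells wrap arteries, arterioles and larger veins and set their diameter. Calcium entry activates myosin light chain kinase, which lets smooth muscle myosin pull on α-smooth muscle actin, and cyclic GMP and cyclic AMP relax the cell. Contractile genes are switched on together by serum response factor and its partner myocardin, which act at a short motif called the CArG box. Pericytes, the related mural cells of capillaries, share receptors such as PDGFRβ and Notch3 with smooth muscle but hold little of this contractile apparatus.

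Sets of 4 values list the cortex-labelled libraries first and the striatum-labelled ones second, each with AAV-CTRL before AAV-VEGF-C. The libraries held 17168, 20370, 23724 and 17466 nuclei with medians of 2272 to 2873 UMIs. The region labels need care. The striatal gene Ppp1r1b stood at 62.6, 74.8, 18.1 and 18.2 CPM (UMIs scaled to a fixed total) over whole libraries, so it was higher in the libraries labelled cortex, while Slc17a7, a glutamate transporter gene of cortical neurons, stood at 415, 453, 56.8 and 41.0 CPM. Vegfc, the delivered gene, was at 12.2, 11.6, 12.9 and 12.1 CPM, which does not separate the AAV labels. These are RNA counts, and the study reports more VEGF-C protein by ELISA in CSF and brain extracts after AAV-VEGF-C. Whether the transcript of the virus was counted as Vegfc was not tested. Between 76 and 118 barcodes were shared by any pair of libraries, but 0 of the 55 smooth muscle barcodes occurred in another library.

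CArG boxes are shown because smooth muscle contractile genes are known to use them. The set holds the strict boxes found for the contractile list, in Myl9, Myl6, Filip1l, Dmd and Vcl, with the second Myl9 box and those of the rule gene Acta2. Each line gives 30 bases around a box, 5′ to 3′ on the gene's strand, from the RefSeq promoter table for GRCm38.p6, with the box in capitals.
Acta2 first box, chr19:34255438-34255467, minus strand: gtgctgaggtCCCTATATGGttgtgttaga
Acta2 second box, chr19:34255388-34255417, minus strand: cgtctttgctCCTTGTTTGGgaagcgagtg
Myl9 first box, chr2:156775293-156775322, plus strand: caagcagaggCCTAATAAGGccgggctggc
Myl9 second box, chr2:156775355-156775384, plus strand: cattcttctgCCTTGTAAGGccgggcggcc
Myl6, chr10:128493040-128493069, minus strand: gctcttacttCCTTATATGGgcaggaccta
Filip1l, chr16:57549170-57549199, plus strand: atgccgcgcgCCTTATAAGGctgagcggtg
Dmd, chrX:82948762-82948791, plus strand: catgggcagtCCTATTATGGgaaagcaact
Vcl, chr14:20929161-20929190, plus strand: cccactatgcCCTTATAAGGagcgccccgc

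A box was counted as strict when the 10 bases began with CC, ended with GG and held 6 bases of A or T between them. The pattern is its own reverse complement, so a search of one strand covers both. Among the promoters, each 300 bases with 250 before the start, 535 of 32851 held a strict box, or 1.63%. The 25 genes of the contractile list had 22 symbols in the table, and 5 of their 29 promoters held one, or 17.2%. With 1 of the 6 middle bases allowed to be another letter, 8 of 29 promoters matched against 9.98% of all promoters. The second Myl9 box and both Acta2 boxes are of this looser kind. Acta2 is a rule gene and not in that list, and its boxes lie 84 and 34 bases before the RefSeq start. The Cnn1 and Lmod1 windows held neither kind. Several promoters belong to the same gene and no test was run. Tagln and Myh11 are named only.

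The shares of smooth muscle nuclei were low in every library and were higher in the libraries labelled striatum. They were 6 of 17168 nuclei (0.0349%, 95% Clopper-Pearson interval 0.0128 to 0.0761%), 7 of 20370 (0.0344%, 0.0138 to 0.0708%), 28 of 23724 (0.118%, 0.0784 to 0.171%) and 14 of 17466 (0.0802%, 0.0438 to 0.134%). Intervals throughout cover counting error only and leave out differences between animals or dissections. Under AAV-CTRL the share was 3.38-fold higher in the striatum-labelled library (exact conditional interval 1.37 to 9.98), and under AAV-VEGF-C 2.33-fold higher (0.881 to 6.83), an interval that includes no difference. With all exclusion genes at 0, which left 13 members, the AAV-CTRL region ratio was 1.12 on the log2 scale and its interval (−2.52 to 6.83) included no difference. AAV-VEGF-C over AAV-CTRL gave 0.983-fold under the cortex labels (0.283 to 3.54) and 0.679-fold under the striatum labels (0.330 to 1.33). Both AAV intervals include no difference, and the one under the cortex labels reaches 3.54-fold. Their direction depended on the rule. With all exclusion genes at 0 the log2 ratios were 1.75 (−1.58 to 7.38) under the cortex labels and 1.18 (−1.18 to 3.87) under the striatum labels, and with a sum of at least 3 the cortex ratio was 0.87 (−0.63 to 2.55).

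**Figure D1:**
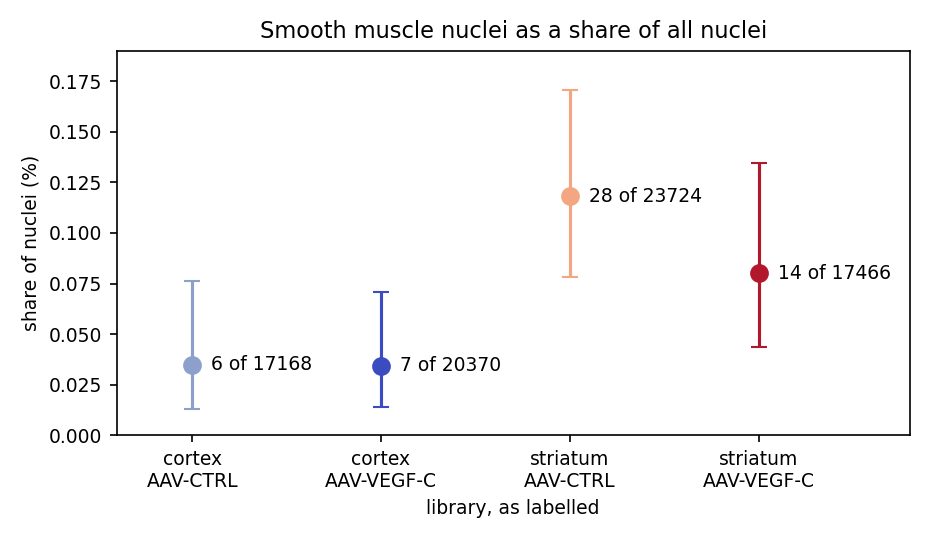
Share of nuclei that met the smooth muscle rule (vertical axis, percent of all nuclei) in each of the 4 libraries (horizontal axis), with 95% Clopper-Pearson intervals as bars and counts beside the points. The 2 libraries labelled cortex lie at 0.0349% and 0.0344%, and those labelled striatum at 0.118% and 0.0802%.

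The shares of other classes were also higher under the striatum labels. Endothelial nuclei, counted by a matching rule, were 1.74%, 1.70%, 2.44% and 2.28% of nuclei, pericytes 0.227%, 0.172%, 0.367% and 0.275%, and fibroblasts 0.285%, 0.187%, 1.16% and 0.504%. Oligodendrocytes, which are not vascular, were 4.94%, 5.53%, 9.65% and 14.03%, a region log2 ratio of 0.97 (0.85 to 1.08) under AAV-CTRL and 1.34 (1.24 to 1.45) under AAV-VEGF-C. Per 100 endothelial nuclei there were 2.01, 2.02, 4.84 and 3.51 smooth muscle nuclei, and the region ratio on this base was 1.26 on the log2 scale under AAV-CTRL (−0.04 to 2.83) and 0.80 under AAV-VEGF-C (−0.61 to 2.35). Both intervals on this base include no difference. Tissue composition, dissection and vessel content cannot be told apart with 1 library per group.

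The rule removed most nuclei that carried the 5 genes. At least 4 UMIs of them were found in 70, 79, 130 and 89 nuclei, 368 in all, of which 55 passed every exclusion and 183 failed at least 2. Endothelial UMIs excluded 232, neuronal UMIs 205, glial or immune UMIs 101 and Atp13a5 58 of the 368, with nuclei that failed several counted in each. Just inside the threshold, 3 members had a sum of 4 and 13 a sum of 5, and just outside it 20 nuclei that passed the exclusions had a sum of 3, of which 0, 6, 11 and 3 were in the 4 libraries. Sums of 10 or more were found in 22 members. A stricter choice, with all exclusion genes at 0, left 13 of the 55.

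The members were shallow nuclei. Their median UMIs were 1516, 1124, 1372 and 1657, below the medians of their libraries, and the lowest had 849. This was not particular to them. Pericyte medians were 1625, 1567, 1519 and 1926 UMIs and endothelial medians 1630.5, 1545, 1620 and 1938, also below those of the libraries. Fibroblast and oligodendrocyte medians were below them too. The part of the exclusion caps in the depth of the members was not tested. Of the 55, 43 had fewer than 2000 UMIs and 5 more than 4000. A single nucleus in the library labelled striatum AAV-VEGF-C had 24321 UMIs and 6550 genes, and the next deepest member had 7000 UMIs. That nucleus gave 47.5% of the 51234 UMIs of its library's 14 members. It held 184 UMIs of Acta2, 159 of Myh11, 91 of Tagln and 1018 of the 25 contractile genes, ranked 25th by depth in its library and was not called a doublet by Scrublet. Sums for the striatum AAV-VEGF-C library below include it, and its own UMIs are given beside a gene where they made up more than 50% of that sum. Mean levels, in UMIs per 10000 UMIs of a nucleus with every nucleus weighted equally, leave it out unless stated. Scrublet called 4.31 to 7.95% of nuclei per library as doublets and 0 of the 55 members.

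**Figure D2:**
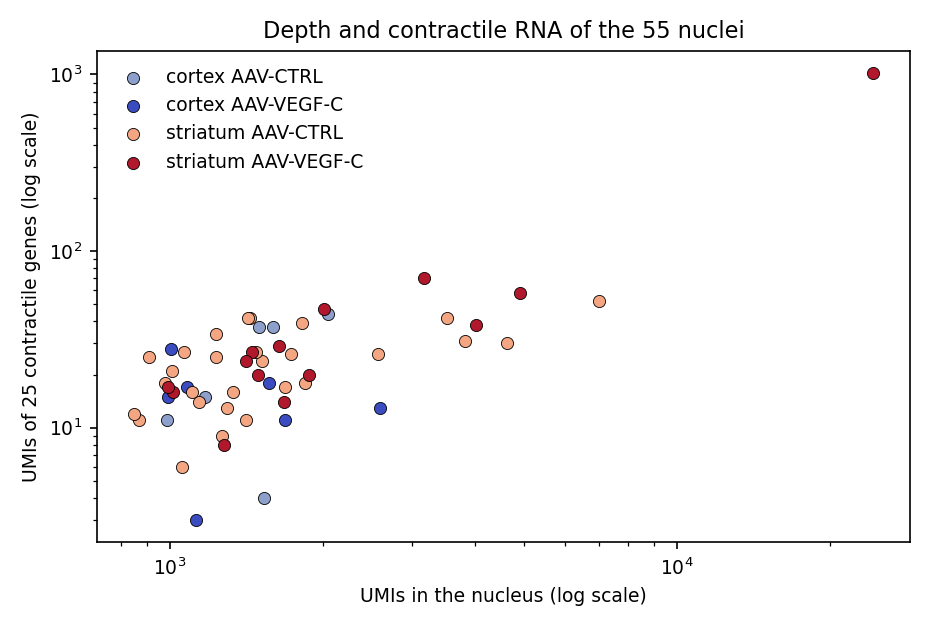
Depth (horizontal axis, UMIs in the nucleus, log scale) against the UMIs of 25 contractile genes (vertical axis, log scale) for the 55 smooth muscle nuclei, coloured by library. One nucleus at 24321 UMIs and 1018 contractile UMIs stands apart, and the next deepest has 7000 UMIs.

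The name was checked against 10 smooth muscle genes that the rule did not use: Myocd, Mylk, Myl9, Cald1, Notch3, Pdlim3, Synpo2, Des, Itga8 and Kcnmb1. All 55 members had a UMI of at least 1 of them, and 40 had at least 3 of the genes. By library at least 3 were seen in 3 of 6, 3 of 7, 24 of 28 and 10 of 14 members. The check is thus weaker for the cortex-labelled members, and in those of cortex AAV-VEGF-C Myocd, Pdlim3, Des and Itga8 were at 0. The summed mean level of the 10 genes was 42.0 UMIs per 10000, beside 15.7 in pericytes, 5.47 in fibroblasts, 4.99 in endothelial nuclei and 1.62 in oligodendrocytes. The 12 striated muscle genes gave 4 UMIs in all and the 9 epithelial and myoepithelial genes 4 UMIs, so that other contractile cell types were at or near 0. Kcnj8, a defining potassium channel of brain pericytes, was at 0 UMIs in all 55 nuclei, and its partner Abcc9 gave 2. Kcnj8 was seen in only 20.6% of pericytes, so its absence is a weak check. In the 12-gene pericyte list 10 genes had a UMI, 150 UMIs in all, and 19 of the 55 members were at 0. This pericyte list stood at 10.6 UMIs per 10000, beside 61.5 in pericytes and 4.19 in all other nuclei. Pecam1, the defining adhesion molecule of endothelium, was at 0, but 11 of the 12 endothelial-list genes had a UMI, 57 UMIs in all. That list stood at 6.66 UMIs per 10000, beside 5.57 in pericytes and 74.3 in endothelial nuclei. It was at 0 in 28 of the 55 members.

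Among the rule genes, Acta2 (ENSMUSG00000035783, GRCm38 chr19:34241090-34255590), which encodes α-smooth muscle actin, had 24, 28, 139 and 244 UMIs in 5 of 6, 7 of 7, 27 of 28 and 14 of 14 members. In CPM these were 2717 (exact Poisson interval 1741 to 4042), 2788 (1853 to 4029), 2713 (2281 to 3204) and 4762 (4184 to 5399), and the last was 2229 (1701 to 2870) without the deepest nucleus. The intervals of the first 3 libraries overlapped, and the higher value of the last rested on 1 nucleus.

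Myh11 (ENSMUSG00000018830, chr16:14194535-14291372), the smooth muscle myosin heavy chain, had 27, 3, 78 and 205 UMIs. Its levels were 3056 CPM (2014 to 4447), 299 CPM (61.6 to 873), 1523 CPM (1204 to 1900) and 4001 CPM (3472 to 4588), with 1709 CPM (1251 to 2280) for the last without the deepest nucleus. Only 2 of the 7 cortex AAV-VEGF-C members had a UMI of it, beside 6 of 6, 24 of 28 and 14 of 14 in the others. In the same 7 members the median Malat1 share was 1.85% of UMIs, beside 4.45%, 3.53% and 6.30% in the other libraries. As described below, the Myh11 mean of this library was the lowest at both high and low Malat1 shares. Those means rest on only 3 UMIs, too few for such a split to decide anything. The cause was not tested.

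Tagln, which encodes the actin-binding protein transgelin, had 9, 7, 47 and 107 UMIs, of which 91 of the last were in the deepest nucleus. Lmod1, an actin filament nucleator, had 4, 0, 20 and 34 UMIs, 22 of the last in the deepest nucleus, and Cnn1, the thin-filament protein calponin, had 2, 3, 7 and 25, 20 of the last in it. In the 55 nuclei, 44 held both Acta2 and Myh11, 9 held Acta2 without Myh11 and 2 the reverse. At least 3 of the 5 genes were seen in 45 nuclei, and 3 nuclei entered on 1 gene alone.

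**Figure D3:**
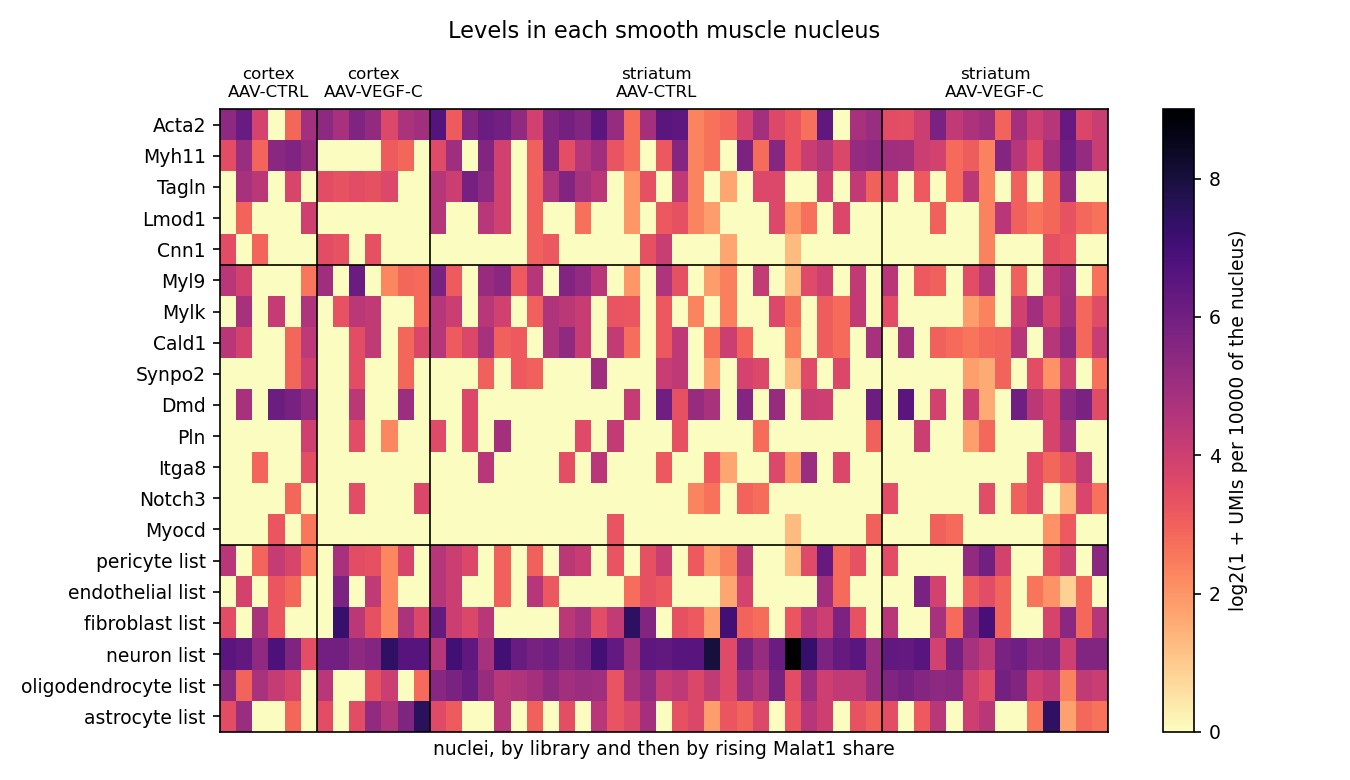
Level in each of the 55 nuclei (columns, by library and then by rising Malat1 share) of 5 rule genes, 9 other muscle genes and 6 marker lists of other cell types (rows), as log2(1 + UMIs per 10000 of the nucleus). Acta2 fills 53 columns and Myh11 46, while neuron-list RNA is present in all 55.

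The rest of the contractile apparatus was present with the rule genes. All 25 genes of the contractile list had a UMI in the members, 23 of them in at least 10 nuclei, and 21 of 25 had a mean level at least 2-fold that of pericytes, with 0 at least 2-fold lower. Over the 16518 genes with a UMI in either class, rule genes left out, 16.3% were at least 2-fold above pericytes and 37% at least 2-fold below, and most of those genes are sparse. These shares take in genes seen in a single class and are not matched for level with the lists, here or below. The summed level was 148 UMIs per 10000 against 41.0 in pericytes, 28.3 in fibroblasts, 32.3 in endothelial nuclei and 21.0 in oligodendrocytes. By library, with the deepest nucleus included, it was 160, 121, 153 and 167 UMIs per 10000, and the last was 148 without it.

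Myl9, the regulatory light chain that the kinase phosphorylates, had 5, 13, 53 and 92 UMIs in 36 nuclei (66 of the last in the deepest), a mean level of 11.8 against 1.06 UMIs per 10000 in pericytes. Mylk, the kinase itself, had 11, 6, 35 and 87 UMIs in 34 nuclei (68 of the last in the deepest), at 8.04 against 1.10. Tpm2, a tropomyosin of the thin filament, had 2, 8, 58 and 110 UMIs in 29 nuclei (85 of the last in the deepest) and stood at 11.4 against 0.124. Myl6, a light chain that many cells use, was at 18.9 against 3.83, and Filip1l at 4.59 against 1.20. All 5 were also lower in fibroblast, endothelial and oligodendrocyte nuclei than in the members. Cald1, which encodes caldesmon, differed less, with 9.6 against 6.8 UMIs per 10000 in pericytes. Myosin phosphatase subunits Ppp1r12a (6.87 against 1.84) and Ppp1r12b (4.54 against 1.32) and the inhibitor Ppp1r14a (2.26 against 0.580), which set how long the light chain stays phosphorylated, were each higher in the members. Vcl (2.38 against 2.28) and Dtna (2.59 against 2.74), both at membrane attachments, were at pericyte level.

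Detection was compared after every nucleus had been thinned to 800 UMIs, so that depth did not set it, and oligodendrocytes served as cells that should lack these genes. Their rule had no cap on genes of other cell types, so mixed nuclei were not left out of that class. Mylk was seen in 26 of 55 members (47.3%, 33.7 to 61.2%), 8.61% of 209 pericytes and 0.685% of 6716 oligodendrocytes. Crip1, a small LIM-domain protein, was seen in 49.1% (35.4 to 62.9%), 1.91% and 0.744%. Pln, the brake on the calcium pump of the sarcoplasmic reticulum, was seen in 20.0% (10.4 to 33.0%), 0.478% and 0.417%. The order turned for pericyte genes. Vtn, which encodes vitronectin, was seen in 9.09% of members (3.02 to 20.0%) against 56.5% of pericytes, Pdgfrb in 10.9% (4.11 to 22.2%) against 40.7%, and Notch3 in 12.7% (5.27 to 24.5%) against 36.4%. Before thinning, Mylk was in 61.8% of members and 2.25% of oligodendrocytes, whose median depth was 2013 to 2371 UMIs per library. The pericyte class was itself chosen to have at most 1 UMI of the rule genes, and these shares are a description.

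**Figure D4:**
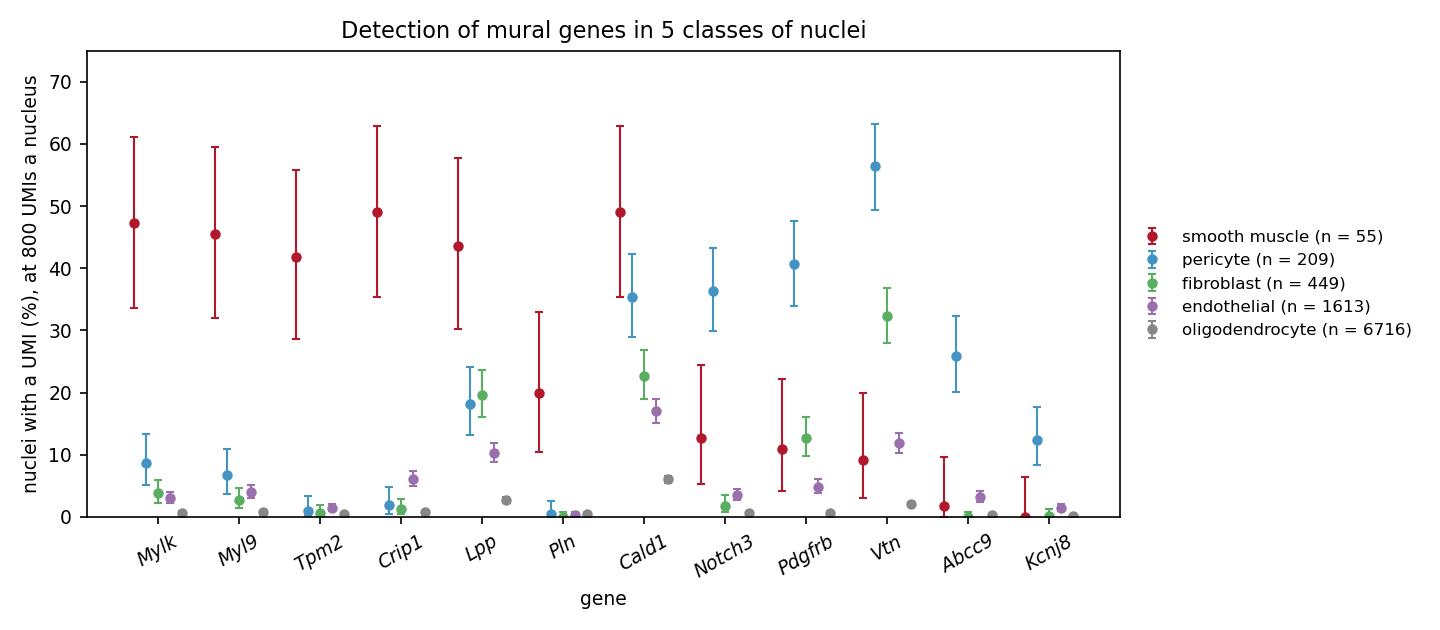
Share of nuclei with a UMI (vertical axis, percent, every nucleus thinned to 800 UMIs) for 12 genes (horizontal axis) in smooth muscle, pericyte, fibroblast, endothelial and oligodendrocyte nuclei, with 95% Clopper-Pearson intervals. Mylk, at 47.3% in smooth muscle nuclei and 8.61% in pericytes, and Vtn, at 9.09% and 56.5%, show the opposite orders.

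Genes linked to arterial rather than venous or capillary mural cells were detected. The 14 genes of the arterial list all had a UMI, summing to 27.0 UMIs per 10000 against 4.01 in pericytes, and 11 of 14 were at least 2-fold above pericytes and 1 at least 2-fold below, beside 16.3% and 37% of all genes. By library the list stood at 34.5, 28.9, 26.3 and 27.9 UMIs per 10000, the last 24.0 without the deepest nucleus. Pln had 3, 2, 13 and 73 UMIs, 63 of the last in the deepest nucleus. Crip1 had 7, 14, 32 and 80 UMIs in 33 nuclei, 51 of the last in the deepest. Eln, the elastin of the arterial wall, had 9, 4, 23 and 41 in 28 nuclei, 26 of the last in the deepest, at 5.15 against 0.121 UMIs per 10000 in pericytes and 2.11 in fibroblasts. Casq2, a calcium store protein, did not follow, at 0.352 against 0.706 in pericytes with 4 UMIs in all.

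The leading genes were sought in 2 ways. The first, which asked for at least 20 UMIs in the members of every library, left 6 genes, since the cortex-labelled libraries held 8834 and 10043 member UMIs, and these were Actb, mt-Atp6, Tmsb4x, mt-Co3, Gm42418 and Malat1, none of them a muscle gene. A looser form, chosen after the data were seen, asked for a UMI in at least 10 of 54 members and in all 4 libraries, which 1371 genes met. By the ratio of mean levels over all other nuclei the first were Tpm2 (127-fold), Myl9 (62.7-fold), Rasl12 (54.7-fold), Crip1 (48.5-fold), Pln (44.4-fold) and Mylk (44.0-fold). They were followed by Pde3a (31.5-fold), a phosphodiesterase of cyclic nucleotides, Eln (30.9-fold), Col18a1 (30.2-fold) and Tinagl1 (29.9-fold). Further down, Slc38a11, an amino acid transporter gene, was at 28.3-fold over other nuclei but at 0.696-fold of pericytes.

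Of 20 transcription factor genes, 19 had a UMI and 5 were at least 2-fold above pericytes, with 3 at least 2-fold below, against 16.3% and 37% over all genes. Myocd, the myocardin of the background, had 2, 0, 3 and 22 UMIs, 19 of them in the deepest nucleus, and stood at 0.860 against 0.0105 UMIs per 10000 in pericytes. Its DNA-binding partner Srf gave 5 UMIs. Ebf1, a factor of mural cells in general, had 6, 3, 53 and 68 UMIs in 33 nuclei and was at pericyte level, 9.52 against 11.3. Zfhx3 had 0, 4, 44 and 35 UMIs, 18 of the last in the deepest nucleus, and stood at 7.13 against 3.11, and Tbx18 at 0.884 against 0.520.

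The 24 calcium handling genes summed to 64.4 UMIs per 10000 against 97.7 in pericytes, with 6 genes at least 2-fold above and 9 at least 2-fold below (16.3% and 37% of all genes). Cacna1c, the voltage-gated calcium channel of arterial muscle, had 7, 5, 41 and 69 UMIs, at 9.39 against 7.14, and its β subunit Cacnb2 was at 7.23 against 3.08. Ryr2, a calcium release channel, was at 3.48 against 0.835. The channel Trpm3, at 8.43 against 49.7 in pericytes and 83.6 in fibroblasts, had the widest gap among the named genes of this list. In the last library 68 of its 85 UMIs lay in 1 nucleus. Ano1, a chloride channel gated by calcium, was at 0.622 against 2.97.

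Potassium channel genes had 5 of 15 members in at least 10 nuclei. Kcnma1, the large-conductance calcium-gated channel that opposes constriction, had 13, 10, 34 and 43 UMIs, 29 of the last in the deepest nucleus, at 7.28 UMIs per 10000 against 2.73 in pericytes and 8.52 in all other nuclei. Its muscle-specific subunit Kcnmb1 had 0, 1, 1 and 5 UMIs, 3 of the last in that nucleus. Kcnab1 had 6, 5, 23 and 34 UMIs, 21 of the last in it, at 4.5 against 1.28. The KATP channel genes Kcnj8 and Abcc9 were the ones given above as 0 and 2 UMIs.

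Receptors of constrictors and dilators were near the limit of detection. Of 29 genes, 22 had a UMI, 0 were seen in 10 or more nuclei and the list summed to 8.68 UMIs per 10000 against 11.7 in pericytes. The endothelin receptor Ednra had 0, 1, 4 and 6 UMIs. The angiotensin receptor Agtr1b had 2, 0, 2 and 6 UMIs in 7 nuclei, 4 of the last in the deepest, at 0.697 UMIs per 10000, and was listed at 0 in all 209 pericytes. Npy1r, the neuropeptide Y receptor, had 1, 1, 3 and 10 UMIs and Ramp1, a partner of the CGRP receptor, 0, 1, 3 and 13, with 8 of each in the deepest nucleus.

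In the cyclic nucleotide group, Pde3a was one of 4 genes of 20 at least 2-fold above pericytes, and 6 were at least 2-fold below, where all genes gave 16.3% and 37%. It had 12, 12, 28 and 75 UMIs in 29 nuclei, 43 of the last in the deepest, at 9.15 against 1.56. Prkg1, the kinase that cyclic GMP activates, had 7, 9, 89 and 126 UMIs, 79 of the last in the deepest nucleus, and was at pericyte level, 13.2 against 13.5. The soluble guanylyl cyclase genes Gucy1a1 (1.75 against 1.17) and Gucy1b1 (1.91 against 3.15), which encode the nitric oxide receptor, were low in both. Rock1, which encodes a kinase that restrains myosin phosphatase, was at 4.92 against 2.00, with 8, 3, 17 and 72 UMIs and 58 of the last in the deepest nucleus. Rgs5, a regulator of G protein signalling, was at 2.00 against 6.90.

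Notch, PDGF and TGF-β genes were lower in sum than in pericytes, 19.6 against 27.1 UMIs per 10000, with 6 of 22 genes at least 2-fold higher and 5 at least 2-fold lower, next to 16.3% and 37% of all genes. Notch3 had 1, 3, 5 and 16 UMIs, at 1.94 against 6.02, and Pdgfrb 2, 0, 9 and 12, 7 of the last in the deepest nucleus, at 1.93 against 7.44. Ltbp1, which holds latent TGF-β in the matrix, had 8, 1, 8 and 46 UMIs, 32 of the last in that nucleus, at 3.07 against 0.209, and Tgfb2 had 0, 0, 10 and 6, at 1.31 against 0.224.

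The matrix list stood at 61.1 UMIs per 10000, between pericytes (30.8) and fibroblasts (110), and 19 of its 37 genes were at least 2-fold above pericytes and 8 at least 2-fold below, when 16.3% and 37% of all genes were. Mgp, an inhibitor of calcification, had 4, 12, 27 and 44 UMIs, 24 of the last in the deepest nucleus, at 7.52 against 2.00 in pericytes and 8.06 in fibroblasts. Itga8, an integrin of contractile cells, had 3, 0, 22 and 29 UMIs, 22 of the last in that nucleus, at 3.31 against 0.256 in pericytes and 0.194 in fibroblasts. Bgn and Col3a1 stood at 4.67 and 2.48 UMIs per 10000, beside 2.96 and 3.40 in fibroblasts. Among secreted factors, Ntn4 had 11, 2, 21 and 27 UMIs in 22 nuclei, 16 of the last in the deepest, at 4.73 against 0.288 in pericytes and 0.226 in fibroblasts, and the guidance factor Slit3 had 2, 5, 22 and 27, at 4.49 against 0.371.

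Vegfc in the smooth muscle nuclei was 0, 0, 4 and 1 UMIs, each UMI in a nucleus of its own. The 0 values have exact Poisson upper limits of 418 and 367 CPM. A floor of 3 counts per library is 340 and 299 CPM there. The striatum-labelled values were 78.1 CPM (21.3 to 200) and 19.5 CPM (0.494 to 109). The striatum-labelled ratio, AAV-VEGF-C over AAV-CTRL, was −2.0 on the log2 scale (−7.62 to 1.34), and it rested on 1 against 4 UMIs. With both cortex-labelled libraries at 0 there was no ratio there. Of the 4 UMIs under AAV-CTRL, 2 lay in the nuclei with 26 and 29 UMIs of Col1a1 that are described below. The rest lay in nuclei without Col1a1 UMIs. The 1 UMI under AAV-VEGF-C lay in the member with the highest endothelial-list level, 7 of its 1280 UMIs. Whether these Vegfc UMIs came from smooth muscle RNA was not tested. Over all members the level was 41.2 CPM (13.4 to 96.2), against 37.6 CPM (26.6 to 51.7) in fibroblasts, 38.0 CPM (31.6 to 45.3) in endothelial nuclei, 6.51 CPM in oligodendrocytes and 0 UMIs in pericytes, where the same floor is 17.6 to 43.9 CPM per library. After thinning, a UMI was seen in 5.45% of members (1.14 to 15.1%) and 0.298% of oligodendrocytes. Members held 4 of the 997 Vegfc UMIs of the striatum AAV-CTRL library and 1 of the 817 of the striatum AAV-VEGF-C library. The nuclei that had 4 UMIs of the rule genes but failed an exclusion were higher, at 133, 164, 173 and 135 CPM.

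Of the other VEGF genes, Vegfa had 7 UMIs, Vegfb 5 and Nrp1 7, and 12 of 13 genes of the family had at least 1. The VEGF-C receptor genes Flt4 and Kdr had 1 UMI each, and Nrp2, a coreceptor, had 14. The family as a whole stood at 4.14 UMIs per 10000 against 44.3 in endothelial nuclei, where Flt1, which the rule capped, made up most of it.

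The nuclei also differed among themselves in Malat1, a long noncoding RNA held in the nucleus, which took from 0.879 to 16.5% of a nucleus's UMIs. The 55 were split at the median share of 3.66%, after the data had been seen, into 27 high-Malat1 and 28 low-Malat1 nuclei. By library the high group held 3, 2, 13 and 9 nuclei and the low group 3, 5, 15 and 5. Levels in this comparison leave Malat1 out of the total and include the deepest nucleus. Mitochondrial RNA was 1.07% of UMIs at the median in the high group and 2.34% in the low group, and median depth was 1685 and 1232 UMIs.

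The contractile genes went opposite ways between these groups. Acta2 averaged 25.3 UMIs per 10000 in high-Malat1 and 42.0 in low-Malat1 nuclei, Tagln 6.99 and 15.1, Myl9 7.38 and 17.4 and Tpm2 6.21 and 18.0. These 4 genes were each higher in the low group in 3 of the 4 libraries. Myh11 averaged 26.9 and 14.6, Dmd, which encodes dystrophin, 26.9 and 8.92, Synpo2 5.67 and 2.89 and Prkg1 22.6 and 6.57, and these were higher in the high-Malat1 group in 4 of 4 libraries. In cortex AAV-VEGF-C the direction rested on 1 and 2 UMIs of Myh11, 1 and 1 of Synpo2 and 5 and 2 of Dmd. For these 3 genes that library adds little to the count. By library, Myh11 averaged 48.1, 3.42, 24.3 and 28.7 in the high group and 17.1, 1.59, 16.7 and 19.5 in the low group. It was thus lowest in cortex AAV-VEGF-C in both groups, but on the few UMIs just given. That library held 2 nuclei in the high group and 5 in the low group, so the pooled Myh11 contrast includes this difference between libraries. The 25-gene list as a whole was 165 and 159, so the differences between the Malat1 groups did not appear in its sum. Of 22 rule and contractile genes with at least 20 UMIs outside the deepest nucleus, 9 of the 12 that span at least 50 kb in GENCODE M21 were higher in the high group (median log2 ratio 0.87), and 3 of the 10 shorter ones were (median −0.68). Across these 22 genes Spearman's rank correlation between gene length and log2 ratio was 0.68. The genes share nuclei and libraries, and no p is given. Acta2, Tagln, Myh11 and Lmod1 are rule genes, so the choice of nuclei constrained their levels. A nucleus low in 1 of them had to hold UMIs of another rule gene to be a member. In shallower nuclei a sum of 4 UMIs is also a higher level per 10000. Myl9, Tpm2, Dmd, Synpo2 and Prkg1 are not rule genes. The part of mitochondrial RNA and depth in these differences was not tested.

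**Figure D5:**
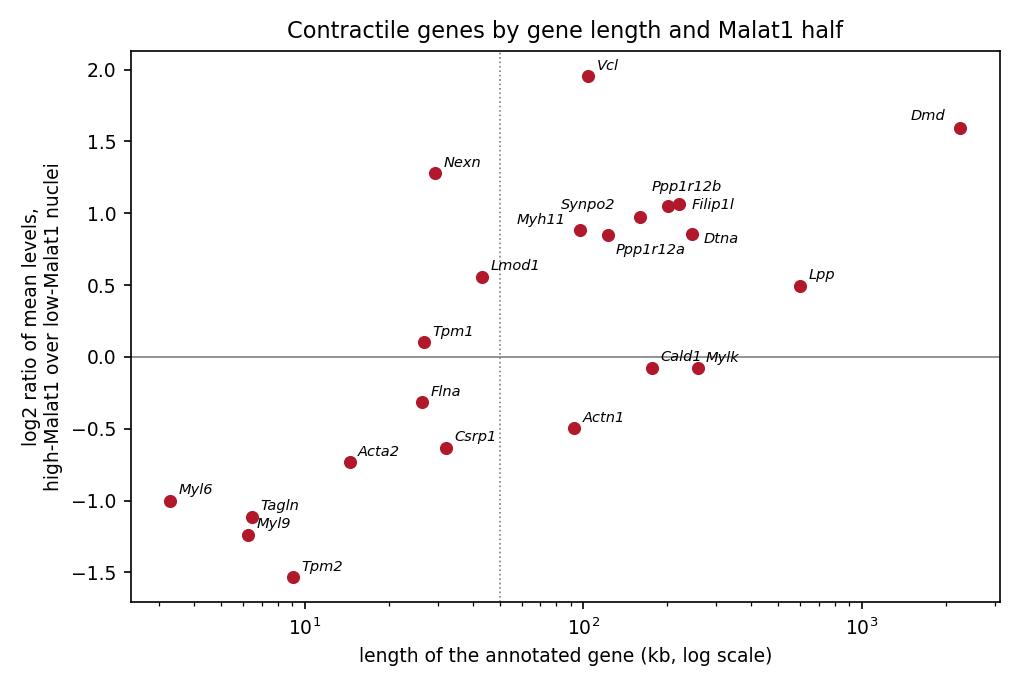
Length of the annotated gene (horizontal axis, kb, log scale) against the log2 ratio of the mean level in high-Malat1 over low-Malat1 smooth muscle nuclei (vertical axis) for 22 rule and contractile genes. The dotted line is at 50 kb. Tagln, Myl9 and Tpm2 lie below 0 at the left, and Dmd and Vcl above 0 at the right of the line.

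RNA of other cell types was present at a low level in most members. The 10 neuron-list genes summed to 79.3 UMIs per 10000, close to the 76.8 of pericytes and 80.5 of oligodendrocytes, and were found in all 55 nuclei. In 2 nuclei of the striatum AAV-CTRL library the neuron list passed 200 per 10000. One of 7000 UMIs held 359 neuron-list UMIs and 15 of the rule genes, and one of 3815 held 97 and 5. Another pair of nuclei in that library held 29 and 26 UMIs of Col1a1, together with 9 and 3 of Bglap, the osteocalcin of bone, and sums of 6 and 5 over the rule genes. Fibroblast-list RNA exceeded 100 per 10000 in 4 members and astrocyte-list RNA in 2, the highest being 184 in a cortex AAV-VEGF-C nucleus with a rule sum of 5. The 10 microglia and macrophage genes gave 21 UMIs in all and 41 members were at 0. Immediate early and stress genes summed to 5.11 UMIs per 10000, beside 4.27 in pericytes and 13.3 in endothelial nuclei.

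Levels were then compared between libraries over genes with at least 40 UMIs in a pair, the rule genes left out. A gene was counted when its CPM differed by at least 2-fold, with no test. AAV-VEGF-C over AAV-CTRL under the cortex labels had 9 such genes, of which 2 were higher (22.2%) and 1 was lower (11.1%). Those were Opcml, a neuronal adhesion gene, at 4 and 39 UMIs, 32 of them in 1 nucleus, mt-Co1 at 12 and 33, and Malat1 at 731 and 390 (log2 ratio −1.09, −1.27 to −0.91). No contractile gene had enough UMIs to be compared in this pair.

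Under the striatum labels 309 genes could be compared, 46 were higher (14.9%) and 42 lower (13.6%). All 88 intervals excluded no difference on counting error. Member totals were nearly equal, 51227 and 51234 UMIs, so the minimum UMIs in a pair and the 2-fold cut already forced this. It therefore adds no support. Between region labels, where totals differed, 33 of 45 genes under AAV-CTRL and 40 of 52 under AAV-VEGF-C had such intervals. In 59 of the 88, more than 50% of the UMIs on the higher side came from 1 nucleus. Of 16 contractile genes, 9 were at least 2-fold higher and 0 lower, with a median log2 ratio of 1.06 beside 0.19 over all 309. Without the deepest nucleus 1 of the 16 was higher, beside 25 of all 309, and the medians were 0.05 and 0.05. Mylk was at 1.31 (0.73 to 1.92) with the nucleus and 0.05 (−0.84 to 0.89) without, Cald1 at 1.40 (0.89 to 1.92) and 0.05 (−0.72 to 0.78), and Pln at 2.49 (1.63 to 3.47) and 0.55 (−0.80 to 1.85). The contractile difference between these libraries thus rested on 1 nucleus.

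Among the genes with intervals farthest from no difference in that pair were neuronal ones, given here with AAV-CTRL first. Of 8 neuron-list genes 7 were at least 2-fold lower under AAV-VEGF-C (median −2.41), among them Cntnap2 (109 and 9 UMIs), Kcnip4 (117 and 11) and Csmd1 (61 and 4). Without the 2 neuron-rich nuclei 3 of 5 were, with a median of −1.01, beside 12 of all 255 genes compared. All 91 Galntl6 UMIs of AAV-CTRL lay in 1 nucleus. Scgb1c1 had 62 and 0 UMIs, Bpifb3 46 and 0 and Runx2, the regulator of bone-forming cells, 59 and 0, with 43, 44 and 42 of them in 1 nucleus each. Set against the floor of 3 counts over the group, their log2 ratios were −4.37, −3.94 and −4.30 or lower. Slc6a20a, an amino acid transporter gene that was at 12.3 UMIs per 10000 in pericytes and 1.66 in the members, had 2 and 39 UMIs, 28 of the latter in 1 nucleus.

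UMIs between region labels are given with cortex first. For striatum over cortex, 119 genes could be compared under AAV-CTRL, with 36 higher (30.3%) and 9 lower (7.56%), and 125 under AAV-VEGF-C, with 47 higher (37.6%) and 5 lower (4%). Contractile genes did not move one way under AAV-CTRL, where 1 of 8 was higher and 1 lower (median −0.47 beside 0.33 over all genes). Dmd was lower there, at 29 and 60 UMIs (log2 ratio −1.49, −2.15 to −0.79). Under AAV-VEGF-C 12 of 15 were higher (median 1.58 beside 0.54). Without the deepest nucleus 5 of 15 were, beside 29 of all 125 genes (median 0.39 beside 0.26). Dmd was higher there, at 7 and 145 UMIs (2.02, 0.94 to 3.36), and at 1.29 (0.14 to 2.69) without that nucleus.

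Of the 68 genes compared under both AAV labels, 3 differed at least 2-fold the same way. Sparc, which encodes a matrix-binding glycoprotein, had 1 and 50 UMIs under AAV-CTRL (3.11, 0.56 to 8.44) and 1 and 55 under AAV-VEGF-C (3.43, 0.89 to 8.76, and 2.58, −0.11 to 7.97 without the deepest nucleus). Tpm2 had 2 and 58 UMIs (2.32, 0.40 to 5.40) and 8 and 110 (1.43, 0.40 to 2.68), but 0.22 (−0.97 to 1.58) without it. Prkg1 had 7 and 89 (1.13, 0.03 to 2.49) and 9 and 126 (1.46, 0.49 to 2.62), and 0.96 (−0.08 to 2.18) without it. The cortex-labelled sides of these 3 genes held between 1 and 9 UMIs. Between AAV labels, 0 of the 8 genes compared under both region labels moved the same way by 2-fold.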

How the data were processed

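Single nuclei of 4 libraries, 63165470 to 78332657 UMIs each, were measured. The deposited values are UMI counts per gene and nucleus, with no normalization, in 4 matrices of 31053 genes. The authors prepared them with 10x Genomics 3′ chemistry. The file headers name Cell Ranger 5.0.1, the submitters' processing notes Cell Ranger 5.1.1 and mm10. Whether intronic reads were counted is not given in the sources used here.

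Members were counted by the rule in the report, and pericyte, fibroblast and endothelial nuclei by matching rules. Oligodendrocytes needed at least 6 UMIs of their own genes and must not be members, with no cap on genes of other cell types. The members and the gene lists were chosen with earlier results of these data known. UMIs were summed per library and class and scaled to CPM, or averaged per nucleus. Intervals (95%) are exact Poisson for levels, Clopper-Pearson for shares and conditional binomial for ratios, and cover counting error only. Each group was 1 library, so no test was made. Calculations used python 3.11.15, numpy 2.4.6, scipy 1.17.1 and, for Scrublet at an expected rate of 8%, scanpy 1.11.5. The comparison of libraries was checked on simulated counts.

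Named genes were the 5 rule genes, members of 22 lists, leading genes over all other nuclei (up to 25), the 8 genes per library pair whose intervals lay farthest from no difference, and genes past 2-fold under both labels of the other factor. From these the text names a part, and where a gene was picked for its value this is a description. Gene positions and lengths come from GENCODE M21 on GRCm38. Alternatives changed the rule threshold, the exclusions, doublets, depth, scaling and the minimum UMIs in a pair. The alternatives without the deepest nucleus, without 2 neuron-rich nuclei and with equal weights per nucleus, the looser rule for leading genes and the Malat1 split were chosen after seeing the data. A few named items are not reported here, and 1 gene was left out of the comparison by gene length.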

Additional observations from a re-analysis of the deposited data

How the results depend on the processing

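No paired analysis was possible because each comparison set 1 library against 1, and no replicate could be left out. The 2 region comparisons form pairs by pool and are given side by side. A fit over both pairs was not made. Of 28 recomputed share ratios 27 stayed within the reported interval, although the cortex AAV ratio ran from −0.57 to 1.75 and the region ratio under AAV-CTRL was 1.12 with an interval that included no difference (−2.52 to 6.83) when all exclusion genes were at 0. The exception was AAV-VEGF-C over AAV-CTRL under the striatum labels in the same setting, at 1.18 on the log2 scale (−1.18 to 3.87) in place of −0.56. All 6 recomputed Vegfc ratios under the striatum labels also stayed within their reported interval, −7.62 to 1.34. That interval rests on 1 against 4 UMIs and is too wide for this to show stability. Leaving out called doublets kept all 55 members, so that setting could not change them. Vegfc gave no ratio in the other comparisons or after thinning to 1000 UMIs, since a side was at 0.

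Counts of genes past 2-fold moved by more than 1.5 times in 21 of 44 recomputations. The reported counts were 3 and 88 between AAV labels (cortex, striatum) and 45 and 52 between region labels (AAV-CTRL, AAV-VEGF-C). In that order a minimum of 20 UMIs in the pair gave 14, 274, 142 and 160, a minimum of 100 gave 1, 17, 5 and 8, and exclusion genes at 0 gave 1, 2, 1 and 0. A rule sum of at least 3 gave 71 for region labels under AAV-CTRL, and at least 6 gave 25 there and 1 for AAV labels in cortex. Scaling without the rule genes, mitochondrial genes and Malat1 gave 1 for AAV labels in cortex. Equal weights per nucleus gave 43 for AAV labels in striatum. Without the deepest nucleus the count was 41 of 186 for AAV labels in striatum and 13 of 41 for region labels under AAV-VEGF-C. Without the 2 neuron-rich nuclei it was 53 of 255 for AAV labels in striatum and 24 of 77 for region labels under AAV-CTRL. Apart from the nuclei and genes that each setting removes by construction, the cause was not tested. The member UMIs of the cortex-labelled libraries, 8834 and 10043, limit every comparison that uses them.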
